A study of Arabidopsis thaliana with 20 samples.

Results

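Transcript levels in Arabidopsis thaliana leaves were compared between 12 h and 8.5 h after lights on, which in this short-day cycle are 4 h and 0.5 h after lights off. The comparison used the 4 arrays at 12 h and the 4 arrays at 8.5 h, 8 of the 20 arrays of the series, chosen by the harvest time and genotype in the sample titles. At each of these times the groups were Atss3, a mutant in starch synthase 3, and WT, the wild type, with 2 arrays each. All plants were 6 weeks old, lived in days of 8 h light and 16 h dark, and were sampled after lights off under a green safety lamp, with no other treatment named in the labels. Each array held total RNA from rosette leaves 5 to 8, pooled from 16 plants. The experiment was run 2 times with separate plantings, and the replicate number is the run. A pool of whole leaves is a bulk sample, in which fewer cells of a type and less RNA per cell cannot be told apart. Hours of darkness and time of day advanced together between the harvests, so they cannot be told apart either.

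In the light a leaf fixes carbon, sends out sucrose and stores starch in its chloroplasts. After lights off photosynthesis stops and the leaf lives on sugars released from that starch. Many leaf transcripts also follow the circadian clock, a loop of transcription factors and light-regulated proteins that anticipates dusk and dawn and keeps running in the dark. Starch synthase 3 is one of the enzymes that extend the glucan chains of leaf starch.

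The deposited values are signal intensities in arbitrary units, 1 for each probe set, a group of short oligonucleotides for 1 transcript or a few. The authors scaled every array to the same mean, so a change in total RNA would not be seen. Median signals of the 8 arrays lay between 157.3 and 178.4. Of the leaf markers, RCA (Rubisco activase), LHCB4.1, LHCB4.2 and PSAE-1 were measured, and the summed signal of the 4 ran from 48800 to 61200 at 12 h and from 69800 to 80800 at 8.5 h. The 1 measured root marker, PYK10, ran from 326 to 554 at 12 h and from 162 to 257 at 8.5 h, and 0 of 6 flower and seed markers had a kept probe set. The sum of the 2 guard cell markers, FMA and AT1G22690, ran from 884 to 2100 at 12 h and from 726 to 898 at 8.5 h. The 1 vasculature marker, SWEET11, ran from 5410 to 7580 at 12 h and from 3820 to 4970 at 8.5 h. The leaf, root and vasculature signals did not overlap between the times, while the guard cell sums did. Of all tested probe sets 11.4% lay higher at 12 h without overlap and 7.48% lower. Of the 4 leaf markers 3 lay apart by themselves and 2 fell at an adjusted p under 0.05 (limma). Their median log2 change was -0.39, or -0.12 with quantile normalization. The part of these markers in the results was not tested. The mutated gene, SS3, could not be used to check the label Atss3, because none of the named probe sets measures it. The GAPDH control probe sets, whose 3′ over 5′ ratio reports RNA or label length, gave log2 values of -0.183 and -0.121 for WT in run 1 and of 0.183 to 0.709 for the remaining 6 arrays. The same log2 ratio for actin at 12 h was 3.152 and 3.089 in Atss3 and 3.43 and 2.857 in WT, against 3.425 and 2.882 in Atss3 and 3.013 and 2.426 in WT at 8.5 h. It was higher at 12 h in both WT runs and in 1 of 2 Atss3 runs, and its part in the results was not tested.

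Between 0.5 h and 4 h of darkness 2686 of 13828 tested probe sets changed (adjusted p under 0.05, limma), which is 19.4% of them. Of these, 1521 were higher at 12 h (11.0%) and 1165 were lower (8.42%). Before adjustment 4768 (34.5%) had a p under 0.05. The falls were larger: the median log2 change was -0.86 among called falls and 0.64 among called rises, and 0.07 over all tested. Changes of at least 2-fold numbered 200 rises and 465 falls, and changes of at least 4-fold numbered 9 rises and 92 falls. With each array centred on its median the split turned to 1186 rises and 1268 falls, with 163 rises and 498 falls of at least 2-fold. The direction was the same in all 4 pairs of arrays of one genotype and run for 2641 of the 2686. The same pairs made the calls, so nothing is read from this. Time of harvest explained 97.7% of the first principal component of the 8 arrays, which held 43.8% of the variation. Run explained 69.6% of the second component (20.4% of the variation) and genotype 65.2% of the third (13.7%).

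**Figure D1:**
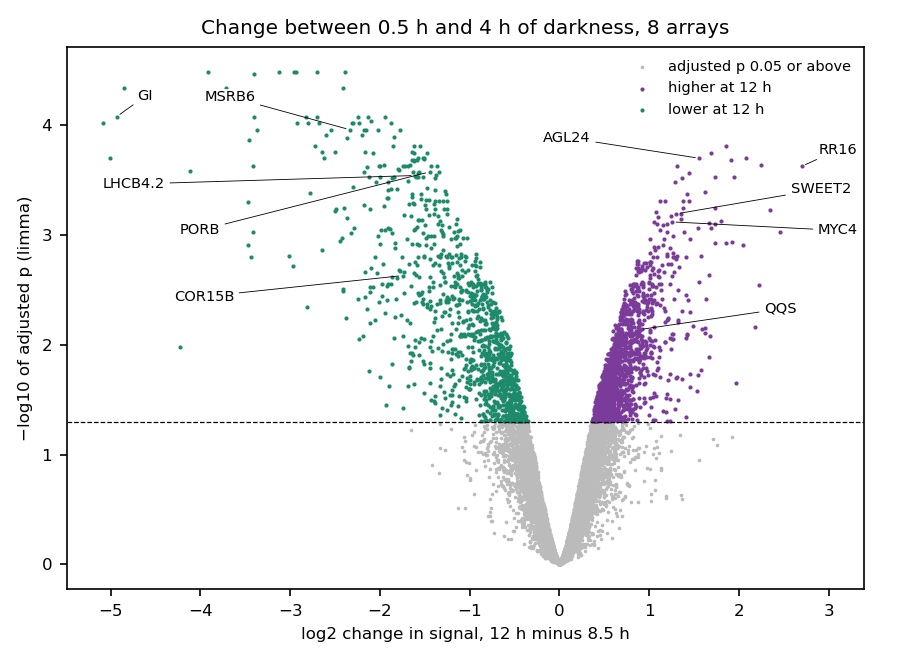
Each point is 1 of 13828 probe sets, with the log2 change in signal (12 h minus 8.5 h, 8 arrays) on the x axis and −log10 of the adjusted p on the y axis. The dashed line marks the threshold, and the 92 falls of at least 4-fold form a left arm that reaches beyond GI at -4.93, while the right arm of rises ends near 3.

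How many probe sets were called depended on single arrays. The number fell to 1239 without the WT 12 h array of run 1 and to 1531 without that of run 2, and to 1673 and 1555 without the WT 8.5 h arrays of run 1 and run 2. Without both WT arrays of run 1 it was 778. Run 1 alone gave 1248 and run 2 alone gave 111, and both runs without the run as a term gave 1762. Of 126 called genes that were tabulated by name, 75 kept the call with any 1 of the 8 arrays left out and 51 lost it at least once. The 24 genes named below for the size of their change kept it in each of those 8 fits. They were chosen for large changes on the same 8 arrays, so nothing is read from that.

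Dim signals make small values uncertain, so genes were ranked by their change with each dim signal raised to its array's 40th percentile. By that ranking of named genes GI, AT5G62360, AT1G20030, AT2G20670 and AT1G51090 fell furthest. GI (AT1G22770, GIGANTEA) is a large clock protein that links day length to flowering. Its signals at 12 h were 60.5 and 83 in Atss3 and 45 and 28.8 in WT, against 2331 and 1110 in Atss3 and 2203 and 997 in WT at 8.5 h. The groups lay far apart, and all 4 arrays at 12 h were dim, which here means under that percentile. GI fell by 4.93 on the log2 scale (SE 0.287, adjusted p = 8.38e-05). With dim signals raised to that percentile the log2 change was -4.06, so the fall was at least 16.7-fold. AT5G62360 had 514 and 470 in Atss3 and 785 and 860 in WT at 12 h, against 6446 and 9410 in Atss3 and 6765 and 11926 in WT at 8.5 h. It stayed well above the dim range and was 13.2-fold lower at 12 h (log2 change -3.72, SE 0.189, adjusted p = 4.54e-05).

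AT1G20030 had 13.3 and 28.7 in Atss3 and 63.3 and 81 in WT at 12 h, against 1206 and 1235 in Atss3 and 1105 and 1248 in WT at 8.5 h. It too was dim on 4 of 4 arrays at 12 h, and its log2 change was -5.0, or -3.69 with raised signals (adjusted p = 0.000199). The other 9 falls named by size were AT2G20670 (-3.45), AT1G51090 (-3.41), AT2G32150 (-3.13), AT1G73480 (-2.93), AT2G23840 (-2.72), AT1G56300 (-2.70), AT3G15450 (-2.65), AT3G10020 (-2.60) and AT1G50040 (-2.77, or -2.51 with raised signals). AT5G12340, with a change of -3.47 as deposited (adjusted p = 0.000503), ranked lower with raised signals and is not among the 12. In each of the 12 the 4 arrays at 12 h lay below the 4 at 8.5 h, as they did for 7.48% of all tested probe sets. Nothing is read from this, since the 12 were chosen for large changes of 1 sign in every pair. AT1G73480 signals ran from 137 to 187 at 12 h and from 1200 to 1269 at 8.5 h.

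RR16 (AT2G40670, response regulator 16) had the largest rise among named genes with raised signals. It is a member of the type-A response regulators that damp cytokinin signalling. RR16 signals at 12 h were 426 and 461 in Atss3 and 738 and 696 in WT, against 94.3 and 64.1 in Atss3 and 71.3 and 132 in WT at 8.5 h. It was dim on 3 of 4 arrays at 8.5 h and well above that level on every array at 12 h. The rise was 2.70 on the log2 scale (SE 0.219, adjusted p = 0.000237), or 2.44 with raised signals. AT1G11700 had 341 and 410 in Atss3 and 485 and 641 in WT at 12 h, against 59.5 and 75.3 in Atss3 and 24.3 and 99.4 in WT at 8.5 h, and rose by 2.99, or by 2.24 with raised signals (adjusted p = 0.00094). AT1G68570 (NPF3.1), of a family of nitrate and peptide transporters, had 1157 and 1388 in Atss3 and 1352 and 1335 in WT at 12 h, against 449 and 428 in Atss3 and 368 and 376 in WT at 8.5 h. Its rise of 1.69 (SE 0.126, adjusted p = 0.000179) was steady over the 4 pairs of arrays. The other 9 were AT5G47610 (1.91), AT3G22620 (2.18), AT2G38180 (1.86), AT1G68110 (1.86), AT5G58570 (1.69), AT5G41940 (1.54), AT1G05710 (1.57), AT3G28040 (1.45) and AT1G17090 (1.44). All 12 had every array at 12 h above every array at 8.5 h, a pattern of 11.4% of all tested probe sets from which, by the same choice, nothing is read.

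**Figure D2:**
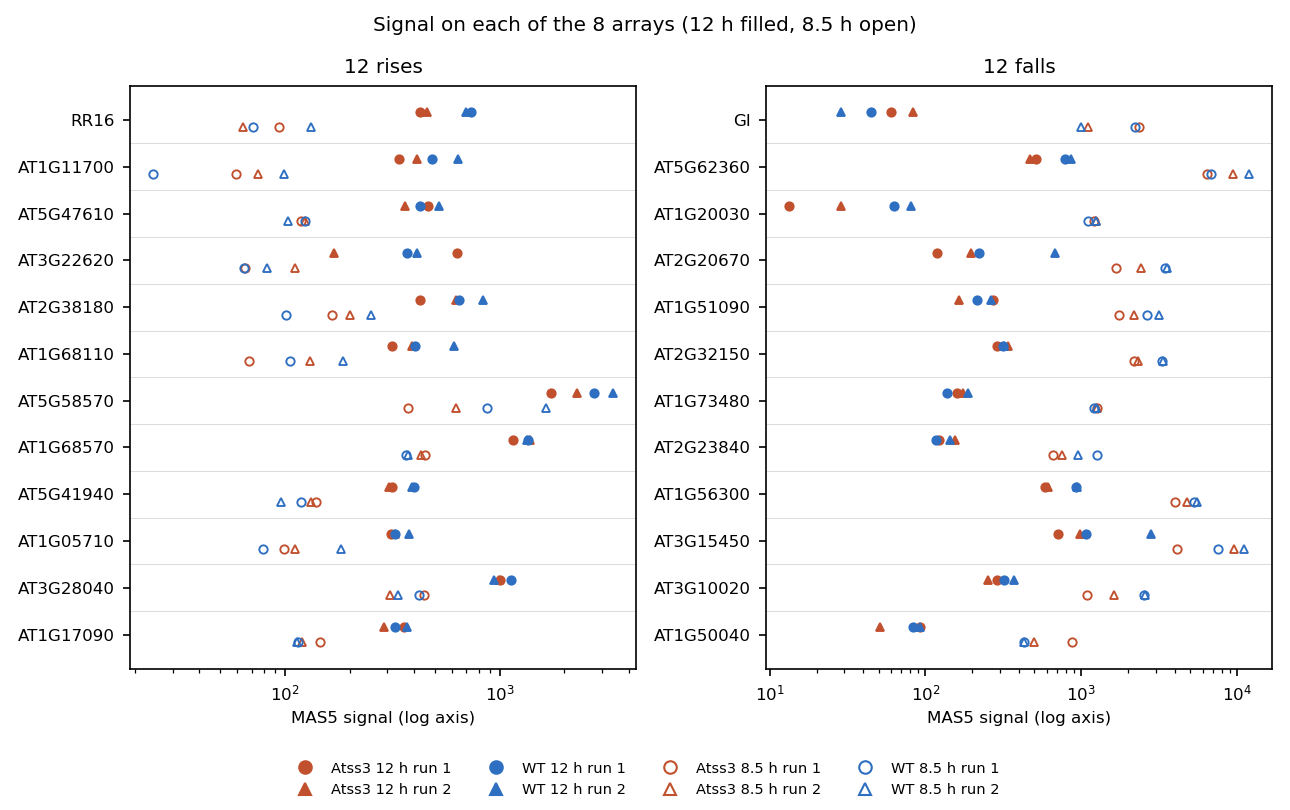
Signals on each of the 8 arrays on a log axis, for the 12 rises (left) and 12 falls (right) named by size; filled points are 12 h, open points 8.5 h, circles run 1 and triangles run 2. In all 24 rows the filled and open points do not overlap, and rows run from the largest change with raised signals, so RR16 and GI come first although AT1G11700 and AT1G20030 changed more as deposited.

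Only clock loci with a probe set named for 1 gene could be tested, and most of those fell. Of 37 listed loci 6 were tested; 0 rose, 5 fell and the median log2 change was -1.37, where 11.0% of all tested probe sets rose, 8.42% fell and the median was 0.07. Beside GI these included COR27 (AT5G42900), a cold-regulated repressor of evening clock genes, which had 1266 and 1374 in Atss3 and 2072 and 2243 in WT at 12 h, against 3229 and 4556 in Atss3 and 3928 and 5484 in WT at 8.5 h. COR27 fell by 1.32 (SE 0.144, adjusted p = 0.000901) with no overlap between the times. AT4G33980, listed with the clock outputs, had 335 and 515 in Atss3 and 313 and 677 in WT at 12 h, against 1183 and 1548 in Atss3 and 1702 and 2082 in WT at 8.5 h. It fell by 1.87 (SE 0.162, adjusted p = 0.000305). AT1G69570, dim on 4 of 4 arrays at 12 h, fell by 1.41, with a raised-signal change of -0.64. AT5G52660 fell by 0.55 (adjusted p = 0.0418) and lost the call in 6 of the 8 fits that left out 1 array, with changes from -0.68 to -0.43. TIC, a protein needed for clock function, differed by 0.54 (adjusted p = 0.107). Its signals at 8.5 h were 1349 and 485 in Atss3 and 1072 and 667 in WT, a split by run that the 12 h arrays (1301 and 1097 in Atss3, 1278 and 1155 in WT) hardly showed.

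The tested cold and abscisic acid response genes also mostly fell. Of 23 listed loci 5 were tested. Of these 0 rose and 4 fell, with a median of -1.59. Of all tested probe sets 11.0% rose and 8.42% fell, with a median of 0.07. COR15B, a chloroplast protein that shields membranes during freezing, had 5608 and 2013 in Atss3 and 4702 and 2381 in WT at 12 h, against 12894 and 11920 in Atss3 and 10536 and 9828 in WT at 8.5 h. It fell by 1.74 (SE 0.234, adjusted p = 0.00234), and at 12 h both genotypes were higher in run 1. Its close relative COR15A was lower by 0.97, with 9686 and 8226 in Atss3 and 11148 and 10314 in WT at 12 h, against 22600 and 19369 in Atss3 and 16944 and 18368 in WT at 8.5 h. Probe sets of such near-identical pairs can share signal. COR47, a dehydrin, fell by 1.59 (SE 0.204, adjusted p = 0.00189).

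STZ, a zinc finger repressor of stress responses, had 729 and 889 in Atss3 and 420 and 538 in WT at 12 h, against 2388 and 2236 in Atss3 and 3175 and 2169 in WT at 8.5 h. STZ fell by 1.99 (SE 0.231, adjusted p = 0.00121) and the groups lay apart. XERICO, a RING protein that raises abscisic acid, did not pass (0.57, adjusted p = 0.0917). Outside the list, LTI30, a further dehydrin, fell by 2.07 (adjusted p = 0.00299) and TIL, a temperature-induced lipocalin, fell by 1.5 (SE 0.116, adjusted p = 0.000201).

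Of the nuclear antenna and photosystem list 7 of 41 loci were tested: 0 rose, 4 fell and 3 were not called. Their median was -0.42 and all 7 values were below 0, where 8.42% of all tested probe sets fell and the median was 0.07. LHCB4.2, a minor antenna protein of photosystem II, had 3998 and 3673 in Atss3 and 4926 and 4746 in WT at 12 h, against 11688 and 13991 in Atss3 and 11672 and 15392 in WT at 8.5 h. Its log2 change was -1.60 (SE 0.137, adjusted p = 0.000287). For its paralogues the changes were -0.42 in LHCB4.1 (adjusted p = 0.0383) and -0.05 in LHCB4.3 (adjusted p = 0.881). LHCB4.1 lost its call in all 8 fits that left out 1 array, with changes from -0.49 to -0.37. PSBY of photosystem II fell by 0.70 (adjusted p = 0.0088), and PSAN of photosystem I fell by 0.77 (adjusted p = 0.0199) but lost the call in 3 of those 8 fits (-0.92 to -0.64). With quantile normalization the list's median was -0.16.

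PORB, which reduces protochlorophyllide in the light, was the 1 member called among 5 tested chlorophyll synthesis genes. That is near the 19.4% called of all tested probe sets. PORB had 3407 and 3257 in Atss3 and 2590 and 2561 in WT at 12 h, against 10873 and 9455 in Atss3 and 6328 and 6213 in WT at 8.5 h. The runs agreed closely and Atss3 was above WT at both times; the log2 change was -1.44 (SE 0.121, adjusted p = 0.000266). CHLM (0.03), GSA1 (0.09), CHLI2 (-0.10) and HEMA2 (-0.20) had adjusted p from 0.278 to 0.871. Of 3 tested Calvin cycle genes, too few to set against the 19.4%, 0 were called, with changes from -0.15 for RCA to 0.15. The 67 tested plastid-encoded probe sets had 0 calls, beside 19.4% called of all tested, and ranged between -0.73 and 0.50. Their median was 0.06, beside 0.07 for all tested probe sets. By pair of arrays of 1 genotype and run that median was -0.21 and -0.25 in Atss3 and 0.49 and 0.02 in WT. It ran from -0.24 to 0.28 with 1 array left out.

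Few starch genes had a named probe set. Among breakdown genes and among synthesis genes alike 1 of 3 tested fell, where 8.42% of all tested probe sets fell. Of the 3 tested breakdown genes DPE1, the plastid enzyme that rearranges maltotriose, had 907 and 849 in Atss3 and 1050 and 789 in WT at 12 h, against 1737 and 1284 in Atss3 and 1582 and 1248 in WT at 8.5 h. DPE1 fell by 0.70 (SE 0.117, adjusted p = 0.00582). PWD, which phosphorylates starch glucans, differed by -0.05 (adjusted p = 0.877) and AMY1, an alpha-amylase, by -0.20 (adjusted p = 0.57). Of the 3 tested starch synthesis genes, AT5G39790 fell by 1.05 (SE 0.128, adjusted p = 0.00155), with signals from 173 to 237 at 12 h and from 400 to 489 at 8.5 h. SBE2.2, a branching enzyme, differed by -0.03 and APL3, a subunit of ADP-glucose pyrophosphorylase, by -0.09 (adjusted p = 0.908 and 0.772).

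Of 7 tested SWEET sugar transporters 2 rose and 2 fell (median -0.41), where 11.0% of all tested probe sets rose and 8.42% fell. SWEET2, a vacuolar sugar carrier, had 554 and 437 in Atss3 and 573 and 467 in WT at 12 h, against 195 and 208 in Atss3 and 197 and 223 in WT at 8.5 h. It rose by 1.3 (SE 0.131, adjusted p = 0.000642), 2.46-fold, with the genotypes side by side. SWEET16, also of the vacuole membrane, had 101 and 132 in Atss3 and 103 and 149 in WT at 12 h, against 408 and 473 in Atss3 and 289 and 278 in WT at 8.5 h, and fell by 1.56 (SE 0.182, adjusted p = 0.00124). SWEET4 fell by 1.09 (adjusted p = 0.00834). SWEET11, which exports sucrose toward the phloem, rose by 0.60 (adjusted p = 0.0175) and lost the call without each of the 4 WT arrays in turn (0.51 to 0.68 over the 8 fits).

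ATSPS4F, a sucrose phosphate synthase, had 978 and 1095 in Atss3 and 1302 and 984 in WT at 12 h, against 854 and 304 in Atss3 and 661 and 212 in WT at 8.5 h. The 8.5 h arrays split by run, and the rise of 1.31 (SE 0.298, adjusted p = 0.0196) lost its call in 4 of the 8 fits with 1 array left out (1.04 to 1.63). PPDK, which makes phosphoenolpyruvate from pyruvate, rose by 1.04 (SE 0.147, adjusted p = 0.00289), with 1188 and 1639 in Atss3 and 1310 and 1480 in WT at 12 h, against 777 and 654 in Atss3 and 685 and 599 in WT at 8.5 h. PDC2, pyruvate decarboxylase of ethanol fermentation, fell by 1.75 (SE 0.142, adjusted p = 0.000237). PDC2 signals ran from 891 to 1377 at 12 h and from 3037 to 4244 at 8.5 h, so PPDK and PDC2, both of which use pyruvate, changed in opposite directions.

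The list of sugar starvation and energy genes had 1 tested member. AT3G15450 had 713 and 983 in Atss3 and 1073 and 2821 in WT at 12 h, against 4099 and 9504 in Atss3 and 7578 and 11114 in WT at 8.5 h. It fell in both genotypes and runs by 2.65 (SE 0.195, adjusted p = 0.000177). Among 8 tested genes of branched-chain amino acid breakdown 0 were called (median 0.09, range -0.13 to 0.43). Of all tested probe sets 19.4% were called and the median was 0.07. The smallest p in the list belonged to MCCA of leucine breakdown (0.43, adjusted p = 0.0821) and ETFBETA, an electron carrier of that route (0.26, adjusted p = 0.138). ATG8 genes encode the small proteins that coat autophagosomes. Of the 9 tested, 8 were above 0 with none of the 8 called (0.21 to 0.61), and ATG8E fell by 0.52 (adjusted p = 0.0287). The median of the 9 was 0.31, beside 0.07 for all tested probe sets, of which 8.42% fell. The ATG8E call was lost in 6 of the 8 fits that left out 1 array (-0.61 to -0.47).

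**Figure D3:**
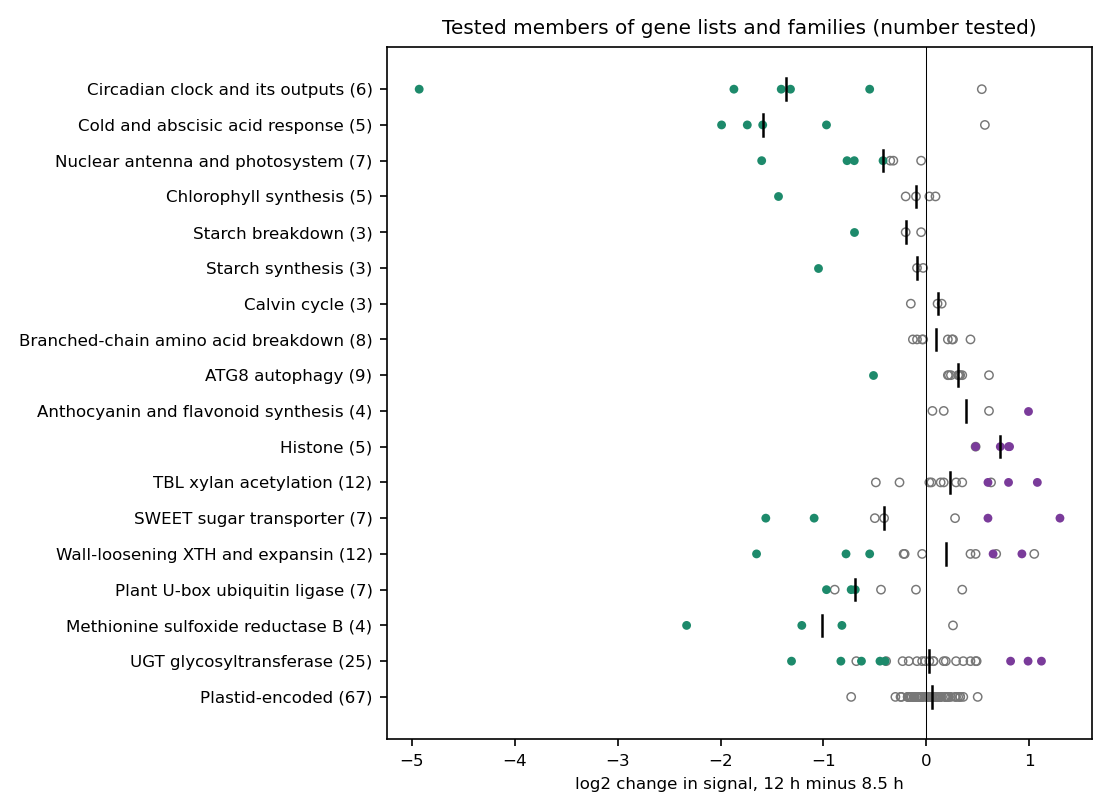
Log2 change (12 h minus 8.5 h) of every tested member of 18 gene lists and families; filled points are called, open points are not, and the bar is the list's median. Clock and cold lists lie to the left with medians of -1.37 and -1.59, histones to the right at 0.72, and SWEET and UGT members lie on both sides of 0.

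Of 4 tested methionine sulfoxide reductases of the B type, which repair oxidised methionine, 3 fell, where 8.42% of all tested probe sets fell. MSRB6 had 1119 and 635 in Atss3 and 1042 and 625 in WT at 12 h, against 4557 and 4167 in Atss3 and 4184 and 3750 in WT at 8.5 h, a 5.04-fold fall (log2 change -2.33, SE 0.153, adjusted p = 0.00011). MSRB9 fell by 1.21 and lost the call without the WT 12 h array of run 1, and MSRB5 fell by 0.82 and lost it in 4 of the 8 fits (-0.99 to -0.64). The MSRB genes lie in near-identical groups, so their probe sets may share signal. ORA47, a jasmonate-responsive transcription factor, fell by 1.84 (SE 0.341, adjusted p = 0.00874), with 1594 on the WT array of run 1 at 8.5 h and 447 to 582 on the other 3.

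BSMT1, which makes methyl salicylate, fell by 2.24 (adjusted p = 0.00881), with a raised-signal change of -1.77. GRX480, a glutaredoxin of salicylic acid signalling, fell by 1.63 (adjusted p = 0.0226). Its signals were 428 and 691 in Atss3 and 213 and 445 in WT at 12 h, against 921 and 849 in Atss3 and 1927 and 1680 in WT at 8.5 h, and the call was lost in 5 of the 8 fits (-1.98 to -1.22). Of 7 tested plant U-box ubiquitin ligases 0 rose and 3 fell (median -0.69), where 8.42% of all tested probe sets fell: PUB23 by 0.97, PUB26 by 0.69 and PUB22 by 0.73. PUB22 and PUB23 damp immune signalling. These calls were lost in 3 of the 8 fits for PUB23 (-1.17 to -0.80), in 5 for PUB26 (-0.82 to -0.54) and in 6 for PUB22 (-0.89 to -0.55).

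MYC4, a bHLH factor of jasmonate responses and glucosinolate synthesis, rose. It had 302 and 346 in Atss3 and 334 and 475 in WT at 12 h, against 124 and 125 in Atss3 and 157 and 210 in WT at 8.5 h (log2 change 1.25, SE 0.131, adjusted p = 0.000759). The 2 tested glucosinolate synthesis genes were not called, where 19.4% of all tested probe sets were. BCAT4 differed by -0.12 (adjusted p = 0.607) and AT2G31790 by 0.40 (adjusted p = 0.19). AGL24, a MADS factor that promotes flowering, had 200 and 199 in Atss3 and 262 and 255 in WT at 12 h, against 70.7 and 64.8 in Atss3 and 102 and 75.3 in WT at 8.5 h. AGL24 was dim on 3 of 4 arrays at 8.5 h and rose by 1.56, or by 1.18 with raised signals (adjusted p = 0.0002). GIS, a zinc finger factor of trichome formation, rose by 1.28, or by 1.19 with raised signals (adjusted p = 0.00379).

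Genes of the ER body, a store of beta-glucosidase in the endoplasmic reticulum, split. NAI1, the bHLH factor known to drive ER body genes, had 45.5 and 81.5 in Atss3 and 54.7 and 75 in WT at 12 h, against 283 and 314 in Atss3 and 237 and 353 in WT at 8.5 h. NAI1 was dim on 4 of 4 arrays at 12 h and fell by 2.23 (adjusted p = 9.47e-05), with a raised-signal change of -1.67. NAI2, a structural component, had 418 and 421 in Atss3 and 448 and 492 in WT at 12 h, against 275 and 220 in Atss3 and 185 and 108 in WT at 8.5 h. NAI2 rose by 1.25 (SE 0.232, adjusted p = 0.00881). PYK10, the main ER body beta-glucosidase and the root marker above, rose by 1.07 (SE 0.199, adjusted p = 0.00901). These genes were picked out after their values were seen.

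EXLA1, an expansin-like protein, had 866 and 385 in Atss3 and 479 and 697 in WT at 12 h, against 1723 and 3170 in Atss3 and 1105 and 1776 in WT at 8.5 h, and fell by 1.65 (SE 0.329, adjusted p = 0.0118). EXLB1, of the same class, rose by 0.93 (SE 0.175, adjusted p = 0.00918), and over the 12 tested wall-loosening genes 2 rose and 3 fell (median 0.19), beside 11.0% and 8.42% of all tested probe sets. EXO, an extracellular protein of brassinosteroid-driven growth, fell by 2.12 (SE 0.363, adjusted p = 0.00639). PMEPCRF, a pectin methylesterase, rose by 1.21 (SE 0.154, adjusted p = 0.00185), with signals from 1535 to 1919 at 12 h and from 615 to 941 at 8.5 h.

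TBL proteins include the enzymes that acetylate wall polysaccharides. Of 12 tested, 3 rose and 0 fell (median 0.23), where 11.0% of all tested probe sets rose: TBL45 by 1.08, TBL37 by 0.80 and TBL38 by 0.60. The calls of these 3 were lost in 3, 5 and 3 of the 8 fits with 1 array left out. Of 25 tested UGT glycosyltransferases, which attach sugars to small molecules, 3 rose and 5 fell (median 0.03), the rises near the 11.0% of all tested probe sets and the falls beside 8.42%. UGT74D1, which acts on auxins, rose by 1.12 (adjusted p = 0.00434) and UGT78D1, which adds rhamnose to flavonols, by 0.99 (adjusted p = 0.004), while UGT76E12 was lower by 1.31 (log2 change -1.31, adjusted p = 0.0113). UGT78D1 was also the 1 member called among 4 tested flavonoid genes, where 19.4% of all tested probe sets were called.

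Histone genes were the family with the largest share of rises among those shown in the plot of lists: of 5 tested, 4 rose and 0 fell, with a median of 0.72, where 11.0% of all tested probe sets rose. HON4, a linker histone-like protein, had 1101 and 1073 in Atss3 and 1523 and 1787 in WT at 12 h. At 8.5 h it had 591 and 780 in Atss3 and 748 and 1028 in WT. HON4 rose by 0.80 (SE 0.130, adjusted p = 0.00519), each pair of arrays moving up. The H2B genes HTB11 and HTB4 rose by 0.72 and 0.48, and lost the call in 4 and 6 of the 8 fits. HTB1 rose by 0.81 and lost it in 6 (0.59 to 1.01), and HTB2 differed by 0.48 (adjusted p = 0.101). H2B copies are alike in sequence, so these probe sets may share signal.

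The change was then set against that of the following 4 h, 12 h to 16 h. Both intervals contain the 12 h arrays, so the difference between them was tested directly over the 20 arrays. It was called for 660 of 13828 probe sets (4.77%), 263 higher and 397 lower in the first interval. A value below 0 means that the first interval moved further down. Without the WT 12 h array of run 1 the count was 197, without that of run 2 it was 340, and without the Atss3 12 h arrays of run 1 and run 2 it was 340 and 278. AT5G62360 changed by -3.72 in the first interval and by -0.59 in the following one (difference -3.13, SE 0.240, adjusted p = 1.96e-05). AT2G32150 changed by -3.13 and then by 0.19 (difference -3.31, adjusted p = 2.59e-05), and AT2G23840 by -2.72 and then by 0.41 (difference -3.12, adjusted p = 2.59e-05). These had done most of their falling by 4 h of darkness.

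LHCB4.2 and PORB turned back. LHCB4.2 averaged 20082 at 1 h, 22161 at 4 h, 13186 at 8.5 h, 4336 at 12 h and 6671 at 16 h, so it changed by -1.60 and then by 0.63 (difference -2.23, SE 0.214, adjusted p = 8.08e-05). PORB averaged 727 at 1 h, 10385 at 4 h, 8217 at 8.5 h, 2954 at 12 h and 6313 at 16 h, changing by -1.44 and then by 1.09 (difference -2.54, SE 0.248, adjusted p = 9.72e-05). COR15A went the other way: it changed by -0.97 and then by -2.07 (difference 1.09, SE 0.211, adjusted p = 0.0102). NAI2 changed by 1.25 and then by -0.99 (difference 2.24, SE 0.538, adjusted p = 0.0313). For SWEET2 the values were 1.3 and 1.11, and the difference of 0.19 was not called (adjusted p = 0.678).

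Over the 5 harvest times, 820 of the 1165 called falls had their highest mean at 8.5 h, and 904 of the 1521 called rises had their lowest mean there. This is a description, since the same 8.5 h values made the calls. Of the called falls 135 were highest at 1 h, 205 at 4 h and 5 at 16 h. GI, COR15B, COR27 and PDC2 were highest at 8.5 h, while LHCB4.2 and PORB were highest at 4 h. SWEET2 and MYC4 were highest at 1 h, with means of 3727 and 1387, and lowest at 8.5 h. RR16 had its highest mean, 1749, at 16 h.

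**Figure D4:**
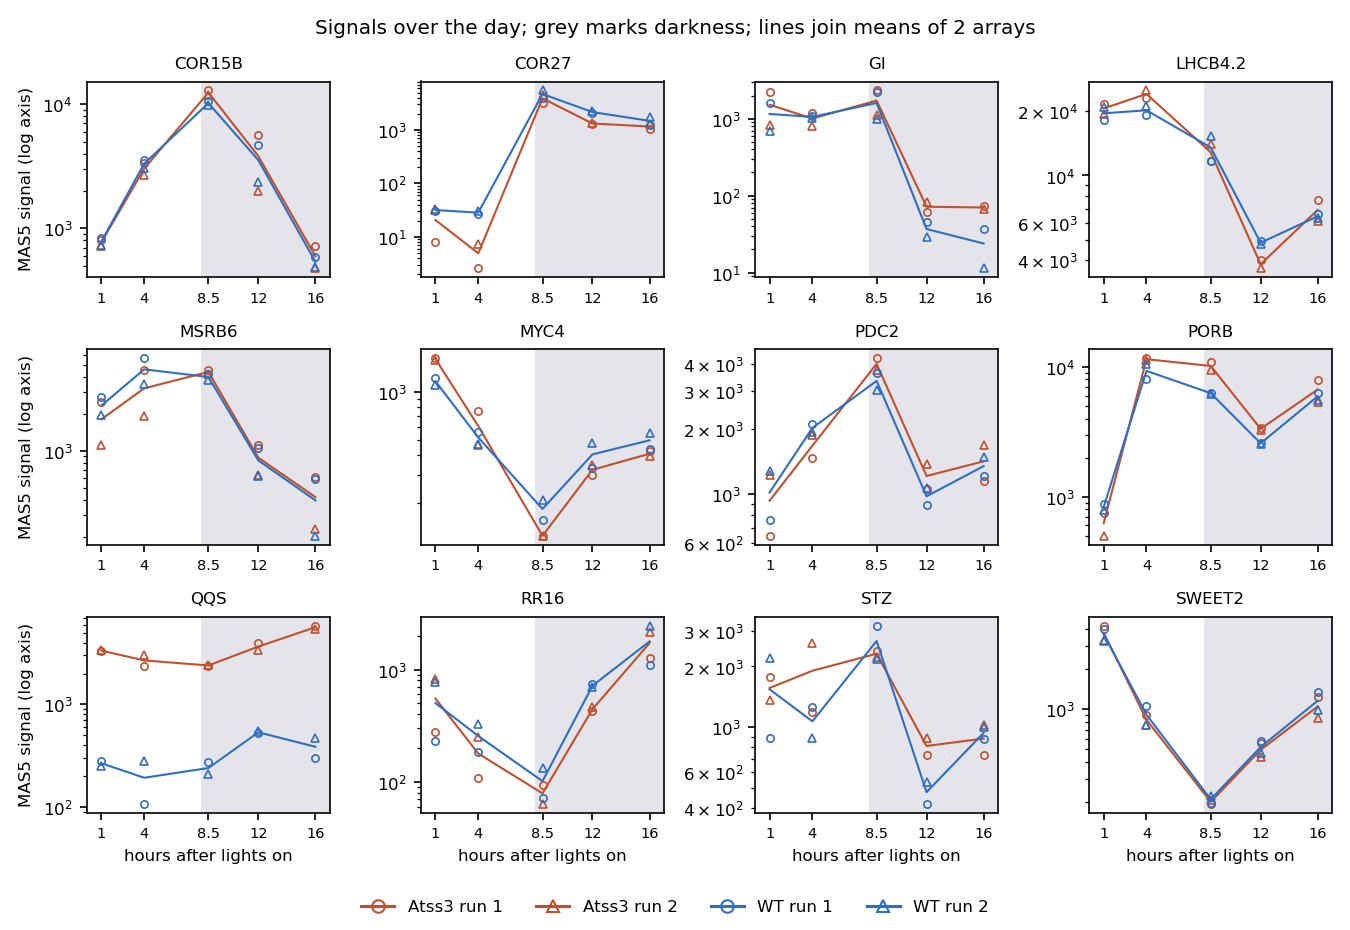
Signals of 12 genes at 5 times after lights on (log axis), with Atss3 in red and WT in blue; points are arrays (circles run 1, triangles run 2), lines join the means of 2 arrays and grey marks darkness. GI, COR15B, PDC2 and PORB drop between 8.5 h and 12 h, SWEET2, MYC4 and RR16 climb, and QQS differs in level between the genotypes at every time.

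Atss3 and WT were also tested apart, over the 20 arrays. In Atss3 884 probe sets changed (6.39%; 384 higher, 500 lower) and in WT 1993 (14.4%; 1111 higher, 882 lower). Both genotypes called 617, which is 69.8% of the Atss3 calls and 31.0% of the WT calls, from fits that share 1 estimate of the spread. Every one of the 2686 probe sets called over both genotypes had the same sign in Atss3 and in WT. Opposite changes add to the spread in the fit that made those calls, so nothing is read from this. The difference between the genotypes in the change was called by limma for 0 of 13828 probe sets (0%), and 930 (6.73%) had a p under 0.05 before adjustment. With raised signals 8 were called, and without the Atss3 12 h array of run 1 there were 15. The lower count in Atss3 is therefore not shown to be a weaker response.

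The smallest p for a genotype difference belonged to AT5G19240, AT1G65490 and AT5G52750. AT5G19240 had 1964 and 2606 in Atss3 at 12 h against 2258 and 2106 in Atss3 at 8.5 h, and 705 and 757 in WT at 12 h against 2300 and 2575 in WT at 8.5 h. Its signals were alike in all 4 arrays of Atss3 and in WT at 8.5 h, and lower in WT at 12 h. The change was 0.05 in Atss3 and -1.74 in WT (difference 1.79, SE 0.257, adjusted p = 0.0649, or 0.0376 with raised signals). AT1G65490 changed by 0.22 in Atss3 and by -1.42 in WT (difference 1.64, adjusted p = 0.0649), and AT5G52750 by 0.28 in Atss3 and by -1.46 in WT (difference 1.74, adjusted p = 0.0804). All 3 passed with raised signals (adjusted p = 0.0376).

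BZIP60, a transcription factor of the response to unfolded proteins in the endoplasmic reticulum, had opposite calls in the genotypes. It had 1028 and 2402 in Atss3 at 12 h against 747 and 1008 in Atss3 at 8.5 h, and 664 and 911 in WT at 12 h against 1245 and 1853 in WT at 8.5 h. BZIP60 rose by 0.86 in Atss3 (adjusted p = 0.0287) and fell by 0.97 in WT (adjusted p = 0.00855); the difference of 1.82 (SE 0.298) had an adjusted p of 0.0804, or 0.0376 with raised signals. It was noticed after the values were seen, together with 1 unnamed probe set of opposite calls (difference -2.42, adjusted p = 0.208).

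QQS (AT3G30720), a short orphan gene named here whatever its values, rose over both genotypes together. QQS had 3951 and 3370 in Atss3 and 523 and 547 in WT at 12 h, against 2374 and 2417 in Atss3 and 272 and 208 in WT at 8.5 h. Within each genotype every 12 h array was above every 8.5 h array, and Atss3 was far above WT at both times. The rise was 0.89 (SE 0.157, adjusted p = 0.00727), with 0.61 in Atss3 and 1.17 in WT, and the difference between these was not called (-0.56, SE 0.456, adjusted p = 0.881).

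**Figure D5:**
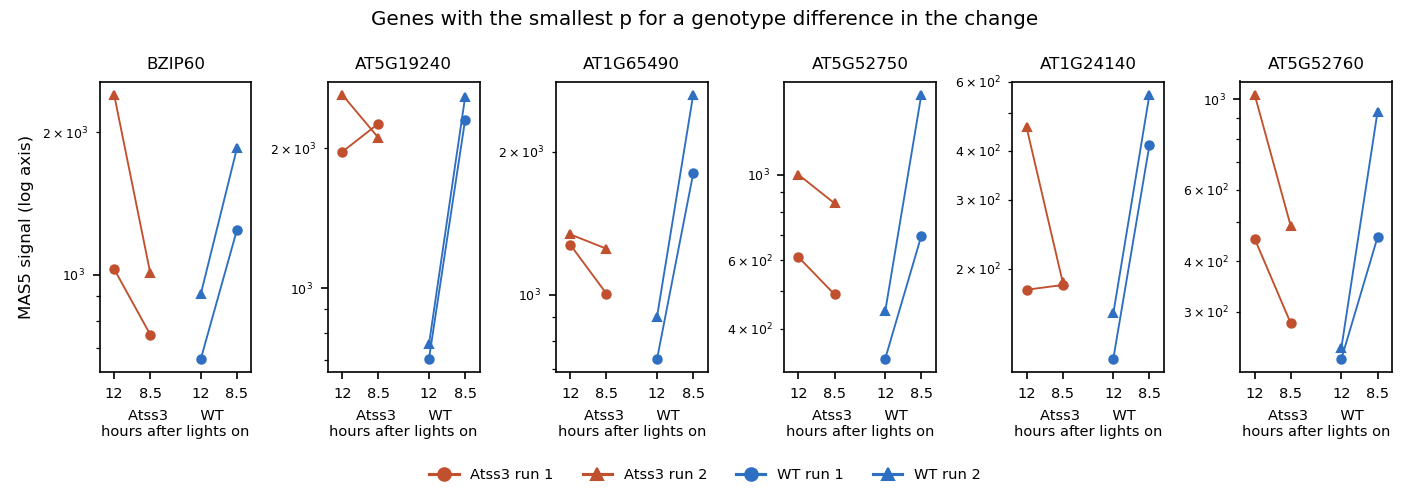
Signals (log axis) of the 6 named genes with the smallest p for a genotype difference in the change, at 12 h and 8.5 h in Atss3 (red) and WT (blue); lines join arrays of 1 run. In WT every line is lower at 12 h, while in Atss3 all but 2 lines are higher at 12 h.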

How the data were processed

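The authors deposited 1 table of signal intensity values for 20 one-colour arrays, made with MAS5 per the submitters' processing notes (version not given in the sources used here). Of 22810 probe sets 64 controls were left out. Signals were put on the log2 scale after raising those under 1 to 1. The filter on dim probe sets asked for a signal over the array's 40th percentile on 4 or more of the 8 arrays and left 13828. Platform annotation named 1 gene for 13513 probe sets and several for 503; 13436 matched assembly TAIR10.1. Of the kept probe sets 7494 had 1 gene (7409 genes); the others are unnamed here.

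The main fit used limma 3.58.1 (R 4.3.3) on the 8 arrays with time, genotype and run as terms (4 residual and 4.29 prior degrees of freedom). Genotype contrasts and the comparison with the following interval used 10 group means and the run as a block over 20 arrays. P-values are 2-sided with Benjamini-Hochberg adjustment across the 13828. The code was tested on simulated data. The labels say that the replicate number marks a run, and deviations of same-run arrays correlated from 0.145 to 0.489 in 6 pairs of groups; p-values measure the spread between pools. The number of arrays limits the precision.

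Genes were named by rule: the 12 largest rises and 12 largest falls among single-gene probe sets called with and without raised signals and with the same sign in 4 of 4 pairs (ranked by the raised-signal change, dim values being set to the 40th percentile), up to 3 called members of each list, QQS, and the 3 smallest p of each other contrast. Other genes with symbols were chosen after their values were seen. The comparison, the lists and the symbol families were chosen with earlier results of these data known, and the families were revised once the annotation was in hand. Where a gene had several probe sets, its brightest was taken. Figures were drawn with matplotlib 3.10.9 (Python 3.11.15, numpy 2.4.6).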

Additional observations from a re-analysis of the deposited data

How the results depend on the processing

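For the change between 12 h and 8.5 h, the count of 2686 called probe sets became 799 with no filter on dim probe sets, 1762 with no replicate block, 1248 in run 1 only and 111 in run 2 only. It ran from 1239 to 2251 with 1 array left out, and was 778 without both WT arrays of run 1, an alternative chosen after seeing the data. Run 1 only and run 2 only each leave 1 array for a genotype and time. For the difference between the first interval and the following one, 660 became 291 with no filter and 312 with no replicate block, and 197 to 619 with 1 array left out. The counts within a genotype, 884 in Atss3 and 1993 in WT, became 401 and 1287 with no filter and 453 and 1247 with no replicate block. With 1 array left out they ran from 297 to 473 in Atss3 and from 842 to 1268 in WT. The genotype difference had 0 calls as fitted and 8 with raised signals, and ran from 0 to 15 with 1 array left out. Median centring moved the share of rises among the calls to 48.3%, against 56.6% as deposited, and the median change over all probe sets to 0.038, against 0.075. Of 432 values of the 24 genes named by size over 18 alternatives, 420 stayed called with the same sign and 12 lost the call: 10 in run 2 only, 1 with no filter and 1 without both WT arrays of run 1. None of the 2268 values of the 126 called genes tabulated changed sign, and 590 lost the call. The cause was not tested. Some of the 18 alternatives leave out arrays or add dim probe sets. Others do neither, such as no replicate block (27 calls lost) and quantile normalization (9 calls lost). The 24 genes named by size were chosen for large changes on the same arrays, so nothing is read from the calls they kept. The 126 were likewise called on those arrays, so nothing is read from the signs they kept. Dim signals have only a bound, which limits the size of falls to the lowest levels.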
